A study of Mus musculus with 21 samples.

Results

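Loss of PDS5A combined with depletion of PDS5B was described by comparing 3 libraries of *Pds5a*-/- siPds5b mouse embryonic stem cells (mESCs) with 3 libraries of WT siGLO mESCs, by RNA sequencing of poly-A RNA. These 6 libraries were chosen by their labelled genotype, siRNA and replicate number, out of 21 libraries in 7 groups of the study. The cells were v6.5 male mESCs grown on gelatinized dishes and collected 48 h after transfection with 50 nM siRNA. WT siGLO mESCs are unedited cells that received siGLO, a control siRNA with no target gene. *Pds5a*-/- siPds5b mESCs (dual-depleted mESCs) carry CRISPR edits in exon 2 of *Pds5a* and received an siRNA against *Pds5b*. *Pds5a*-/- siGLO and WT siPds5b mESCs, with 3 libraries each, are given beside them where they show which of the perturbations a value goes with. All *Pds5a*-/- libraries derive from 1 edited clone, and what belongs to that clone cannot be told apart from what belongs to the gene. The sources used here call replicates of the WT and single knockout read counts biological but do not say how cultures were kept apart, and p-values measure only the spread between these libraries.

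Cohesin is a ring-shaped complex that extrudes chromatin into loops and holds sister chromatids together. PDS5A and PDS5B are related proteins that bind the ring through its RAD21 subunit, where they act with WAPL in releasing cohesin from chromatin, with the ESCO enzymes in its acetylation, and with CTCF at loop boundaries. mESCs depend on a small network of transcription factors for self-renewal, and the genes of this network and of the lineages that it holds back are a sensitive readout of changes in chromatin.

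Each library gives the number of reads per gene for 23412 gene symbols, with totals of 22026367, 18752413 and 19421506 in dual-depleted mESCs and 23283401, 17539639 and 23989198 in WT siGLO mESCs. Expression is given as normalized counts, which are counts divided by the TMM-adjusted library size and multiplied by 19816922, the mean of these sizes. Changes are log2 fold changes from edgeR's quasi-likelihood test. DEGs are genes with a Benjamini-Hochberg adjusted p under 0.01 over the 14963 genes with enough counts. Log2 fold changes are against WT siGLO mESCs unless another group is named, and a value in parentheses after a gene or its counts is its log2 fold change. For the genes with counts given below, the libraries of dual-depleted and WT siGLO mESCs did not overlap unless stated. Such a lack of overlap was common. Over the 14963 tested genes, 4128 had every dual-depleted library above every WT siGLO library, and 3992 had every one below. Among DEGs these numbers were 2585 and 2177, so a lack of overlap adds little to a call.

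Dual-depleted mESCs had 4787 DEGs compared to WT siGLO mESCs, which is 32.0% of the tested genes. Of these 2598 were higher (17.4% of tested genes) and 2189 were lower (14.6%). These percentages are the background against which counts of each gene list are given. The median log2 fold change of all tested genes was -0.0013, and the median size was 0.30. Large increases outnumbered large decreases, with 1276 DEGs higher and 522 lower by at least 1 on the log2 scale. Compared to *Pds5a*-/- siGLO mESCs, which share the genotype, dual-depleted mESCs had 1136 DEGs (7.59%), 599 of them higher (4.0%) and 537 lower (3.59%). The count depends on the libraries and the fit, with 689 DEGs without *Pds5a*-/- siGLO replicate 2, 710 without dual-depleted replicate 2, 524 with only the 2 groups fitted and 1568 when replicate numbers form blocks. That comparison uses the same dual-depleted libraries, so its values are given side by side and are not independent of the comparison with WT.

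The targeted transcripts were measured first. The *Pds5a* guides are shown because they mark the target sites, not the alleles that resulted from editing. They are in lower case, with the protospacer adjacent motif of the mm10 sequence in capitals. Both lie on the plus strand, opposite to the gene, within the coding part of exon 2 in transcript Pds5a-201. The first site is chr5:65696769-65696788 and the second is chr5:65696843-65696862.
Pds5a guide 1: acgtttgatcatttcatcggTGG
Pds5a guide 2: ccgcactcacgacgccacagAGG

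*Pds5a* had 4082, 3806 and 3522 normalized counts in dual-depleted mESCs and 5256, 4720 and 5200 in WT siGLO mESCs, so the groups did not overlap and 75.2% of the WT mean was left. The log2 fold change was -0.41 (standard error 0.09, adjusted p = 6.05e-04). *Pds5a*-/- siGLO mESCs had 4786, 3788 and 4239 normalized counts of *Pds5a* and WT siPds5b mESCs had 4917, 4674 and 5674. These are counts over the whole transcript, and protein was not measured in these libraries. *Pds5b* had 1073, 900.8 and 735.5 normalized counts in dual-depleted mESCs and 2354, 2019 and 2285 in WT siGLO mESCs, again without overlap, and 40.7% of the WT mean was left. Its log2 fold change was -1.30 (standard error 0.11, adjusted p = 4.39e-09). An exact two-sided permutation test over the 20 arrangements of the 6 libraries gave p = 0.1 for both genes (n = 3 each), the smallest value that this design allows. WT siPds5b mESCs had 686.7, 839.4 and 802.4 normalized counts of *Pds5b*, close to the dual-depleted libraries, and *Pds5a*-/- siGLO mESCs had 2613, 2074 and 2412, close to WT. Among the 16 tested genes of cohesin and its regulators, 4 were lower and 1 was higher, with a median log2 fold change of -0.04 (-0.089 to -0.0091 over the alternative settings). Apart from the PDS5 genes the lower ones were *Rad21*, the kleisin subunit that closes the ring (log2 fold change -0.24), and *Sgol1*, the shugoshin that guards centromeric cohesion (-0.28). *Rad21* was not a DEG without dual-depleted replicate 2 (-0.24), dual-depleted replicate 3 (-0.24), WT siGLO replicate 1 (-0.19) or WT siGLO replicate 3 (-0.24), nor with only the 2 groups compared (-0.24). *Sgol1* was not a DEG without dual-depleted replicate 2 (-0.24), dual-depleted replicate 3 (-0.27), WT siGLO replicate 1 (-0.26), WT siGLO replicate 2 (-0.30) or WT siGLO replicate 3 (-0.29). *Hdac8*, which deacetylates SMC3 so that cohesin can be reused, rose from 130.6, 134 and 124 to 213.1, 198 and 170.4 normalized counts (0.58). *Hdac8* was not a DEG without dual-depleted replicate 1 (0.49).

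The label of the cells was checked with marker lists. Embryonic stem cell markers were abundant in all 6 libraries, with summed normalized counts of 68940, 67430 and 63910 in dual-depleted and 108200, 106000 and 103900 in WT siGLO mESCs, and 6 of the 8 were lower. Trophoblast markers moved the other way. Their summed normalized counts were 704.1, 1623 and 1753 in dual-depleted, 751.6, 1762 and 1781 in *Pds5a*-/- siGLO and 135.8, 100.3 and 124.9 in WT siGLO mESCs, and all 4 tested markers of the 5 were higher. *Krt7* had the highest count among them, *Elf5* did not pass the filter on low counts, and none was at 0 in every dual-depleted library. Germ line markers summed to 2705, 2564 and 2487 in dual-depleted and 1799, 1208 and 1192 in WT siGLO mESCs, with 3 of 4 higher. Fibroblast markers summed to 529.2, 1152 and 1505 in dual-depleted and 1169, 1224 and 1622 in WT siGLO mESCs, which overlapped. Of the 6 tested fibroblast markers 1 was lower, and *Lum* and *Dcn* did not pass the filter. The summed markers of primitive endoderm (1753, 1056 and 991.7 against 1469, 850.5 and 870.8) and of the 2-cell-like state (1331, 1205 and 705.6 against 1371, 946.2 and 1282) also overlapped, and none of these genes was a DEG with edgeR. Neural markers summed to 1080, 1073 and 988.7 in dual-depleted and 1809, 1452 and 1601 in WT siGLO mESCs, with 2 of 5 tested lower and 1 higher. *Tubb3*, named after its values were seen because it had the highest count among them, fell from 1287, 973.3 and 1163 to 615.3, 671.7 and 647.8. Mesoderm markers summed to 115.4, 159.6 and 133.6 in dual-depleted and 122, 437.1 and 607 in WT siGLO mESCs, which overlapped through WT siGLO replicate 1. Replicate 1 also had the lowest trophoblast and fibroblast sums in both *Pds5a*-/- groups and the highest primitive endoderm sum in all 4 groups. DEGs against WT numbered 4505 without dual-depleted replicate 1 and 3863 without WT siGLO replicate 1. In these bulk libraries, fewer cells of a type and less RNA per cell cannot be told apart, and the part of any cell type in the changes below was not tested.

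**Figure D1:**
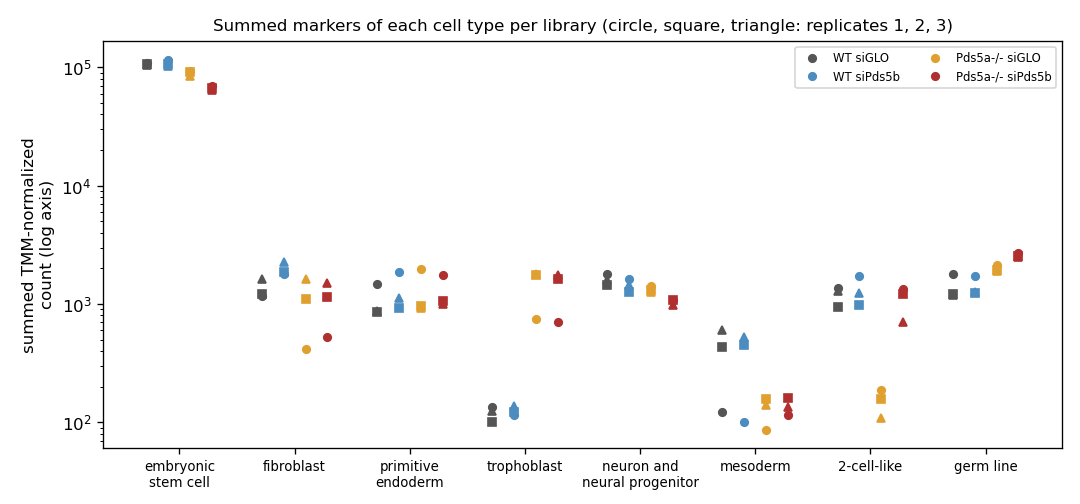
Summed TMM-normalized counts of the markers of 8 cell types (y axis, log scale) in each library of 4 groups, with circles, squares and triangles for replicates 1, 2 and 3. Trophoblast markers lie between 704.1 and 1753 in dual-depleted mESCs and between 100.3 and 135.8 in WT siGLO mESCs, while embryonic stem cell markers are lower in dual-depleted mESCs.

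The naive pluripotency network fell broadly. Of its 18 factors 12 were lower and 1 was higher, against 14.6% and 17.4% of all tested genes, and the median log2 fold change was -1.59. *Prdm14*, a repressor of FGF signalling and DNA methylation in the naive state, had 62.1, 82.9 and 85.7 normalized counts in dual-depleted mESCs, 289.5, 312.4 and 336.4 in *Pds5a*-/- siGLO, 505.3, 580.4 and 551 in WT siPds5b and 624.7, 607.2 and 544.1 in WT siGLO mESCs. The dual-depleted libraries were the lowest of the 12, the *Pds5a*-/- siGLO libraries were intermediate, and the WT groups overlapped. The log2 fold change was -2.95 (standard error 0.18, adjusted p = 8.49e-12). The same order of groups was seen for *Klf4*, a LIF-responsive reprogramming factor, with 572.7, 657.2 and 616.9 normalized counts in dual-depleted, 1707, 1626 and 1622 in *Pds5a*-/- siGLO and 3472, 3358 and 3269 in WT siGLO mESCs (-2.45 against WT, standard error 0.08). *Tbx3*, a T-box factor that supports self-renewal, fell from 1826, 1784 and 1610 to 248.6, 319.3 and 316.9 (-2.56). *Tfcp2l1*, a STAT3 target of the naive state, fell from 6324, 7564 and 7210 to 1143, 1517 and 1681 (-2.28). *Nanog*, the homeobox factor that stabilizes self-renewal, had 10500, 9922 and 10940 normalized counts in WT siGLO and 2602, 3594 and 3515 in dual-depleted mESCs (-1.69, adjusted p = 3.05e-09). None of these 4 overlapped between the groups either. The exception in direction was *Dppa3*, a maternal factor that guards methylation marks, with 794.7, 1190 and 916.9 normalized counts against 155.5, 219.7 and 156.3 in WT siGLO mESCs (2.46). *Tdgf1*, the NODAL co-receptor and the member with the highest count, had 37860, 33130 and 32250 against 42790, 39980 and 36500, which overlapped (adjusted p = 0.0641). Compared to *Pds5a*-/- siGLO mESCs, 12 of the 18 factors were lower (3.59% of all tested genes) and none by edgeR (1 at an unadjusted p under 0.05 and 0 by DESeq2) was higher, with a median of -1.02.

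The list of general pluripotency genes includes the core factors shared by naive and primed cells. Of its 14 genes 7 were lower and 1 was higher (median -0.35). *Sox2*, the partner of OCT4, had 5006, 4355 and 4601 normalized counts in dual-depleted and 8262, 8384 and 7562 in WT siGLO mESCs (-0.79, adjusted p = 5.69e-09). *Sox2* in *Pds5a*-/- siGLO mESCs, with 8656, 7375 and 7400, lay in the range of the WT groups or close to it. *Pou5f1*, which encodes OCT4, fell from 26620, 27760 and 27480 to 19430, 17770 and 17830 (-0.57). *Tdh*, the threonine dehydrogenase on which mESC metabolism relies, fell from 7539, 9546 and 9458 to 1730, 1934 and 1799 (-2.28), and *Lin28a*, an RNA-binding inhibitor of let-7 maturation, rose from 8164, 9386 and 10010 to 12810, 12270 and 11330 (0.40). For all 4 genes the groups did not overlap.

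Genes of the formative and primed states did not move together against WT. Of 17 tested genes 6 were higher and 2 were lower (median 0.37, and 0.22 to 0.49 over the alternative settings). Against *Pds5a*-/- siGLO mESCs 3 were higher and none by edgeR (0 at an unadjusted p under 0.05 and 0 by DESeq2) was lower (median 0.33). *Dnmt3a*, a de novo DNA methyltransferase, rose from 3688, 2774 and 3036 to 12320, 9257 and 8909 normalized counts (1.68, adjusted p = 6.75e-05). *Dnmt3b*, the other such enzyme and the member with the highest count, rose from 4879, 5949 and 6546 to 14410, 11940 and 10280 (1.08). *Pou3f1*, which encodes the formative factor OCT6, rose from 619.6, 941.7 and 912.9 to 2401, 1957 and 1514 (1.25), and *Lef1*, the effector of Wnt signalling, rose from 281, 402.1 and 402.7 to 1096, 714.2 and 812.3 (1.28). *Lef1* had 445.9, 305.8 and 293 normalized counts in *Pds5a*-/- siGLO mESCs, near WT. Against that group *Lef1* (1.33, adjusted p = 8.6e-04) and *Pou3f1* (0.80, adjusted p = 0.00361) were DEGs. *Dnmt3a* (0.62, adjusted p = 0.104) and *Dnmt3b* (0.14, adjusted p = 0.601) were not. When replicate numbers form blocks *Dnmt3a* passed (adjusted p = 2.4e-04) and *Dnmt3b* did not (adjusted p = 0.554). *Fgf5*, the usual marker of the primed epiblast, instead fell from 127.2, 263.6 and 315.9 to 103.9, 64.3 and 58.8 (-1.63). *Fgf5* was not a DEG without dual-depleted replicate 2 (-1.53), dual-depleted replicate 3 (-1.48) or WT siGLO replicate 3 (-1.35). Against *Pds5a*-/- siGLO mESCs its log2 fold change was 1.49, in the opposite direction, and did not pass the threshold (adjusted p = 0.0307). DNA methylation genes showed both directions too, with 6 higher and 5 lower of 19. *Dnmt3l*, the cofactor of the de novo enzymes, rose from 7212, 4811 and 4755 to 23990, 19030 and 15770 (1.81), while *Tet2*, which oxidizes methylcytosine, fell from 3541, 2637 and 2601 to 1119, 1030 and 1376 (-1.32). Against *Pds5a*-/- siGLO mESCs *Dnmt3l* (0.60, adjusted p = 0.0927) and *Tet2* (-0.52, adjusted p = 0.0441) were not DEGs. Both passed when replicate numbers form blocks (adjusted p = 4.2e-05 and 0.00512). *Zfp57* (-0.76) and *Trim28* (-0.56), which keep methylation at imprinted loci, were both lower.

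**Figure D2:**
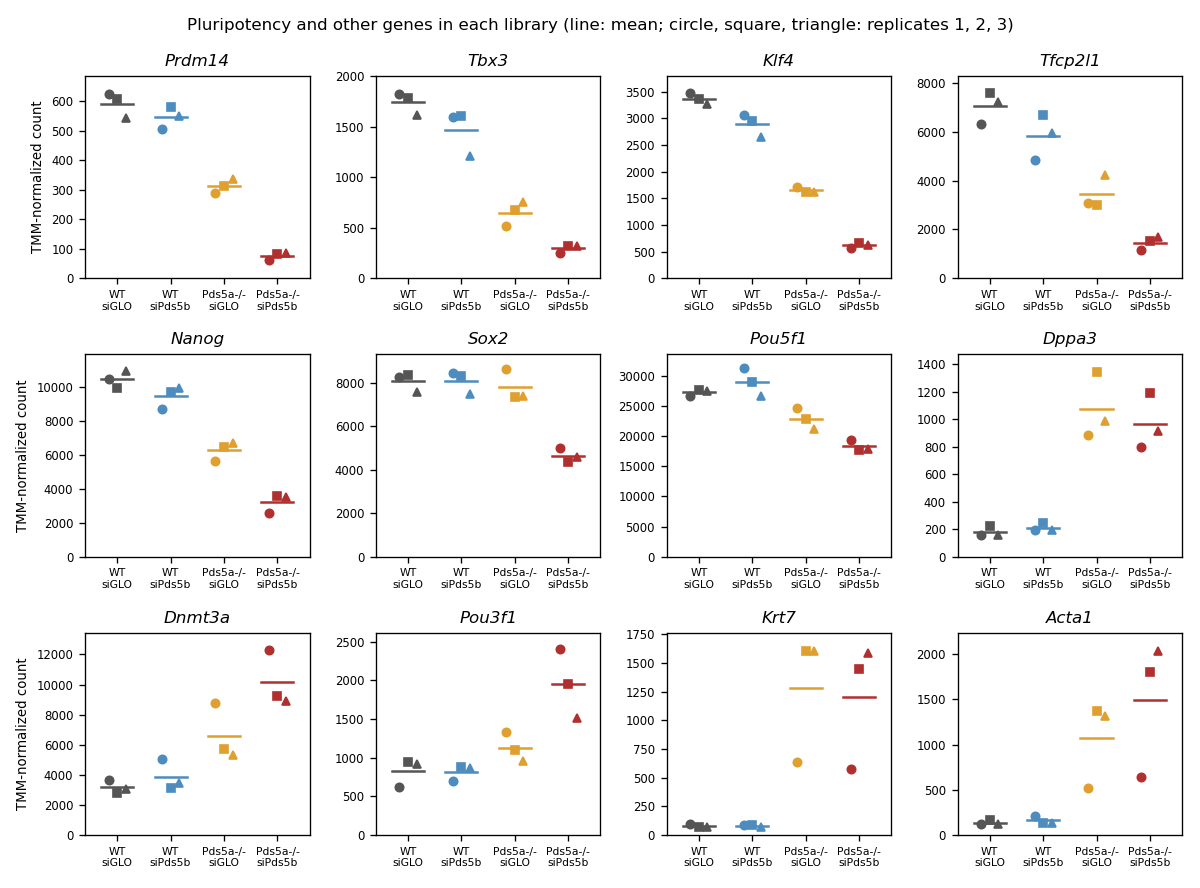
TMM-normalized counts (y axis, from 0) of 12 genes in 4 groups of 3 libraries, WT or *Pds5a*-/- and with siGLO or siPds5b, with lines at the group means. *Klf4* and *Prdm14* are lowest in the dual-depleted libraries, and *Krt7* is high in both *Pds5a*-/- groups.

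Of 19 tested trophoblast genes (22 in the list) 13 were higher and 1 was lower, with a median log2 fold change of 2.28. *Krt7*, a keratin of trophoblast and simple epithelia, had 575.4, 1443 and 1589 normalized counts in dual-depleted, 638.9, 1601 and 1602 in *Pds5a*-/- siGLO and 98.8, 72.1 and 68.6 in WT siGLO mESCs. Both *Pds5a*-/- groups were above every WT library, and replicate 1 was the lowest in each of them. For *Krt7* the log2 fold change was 3.90 (standard error 0.49, adjusted p = 1.60e-05). The keratin pair of simple epithelia behaved alike, with *Krt18* rising from 1139, 1117 and 1162 to 5532, 14520 and 15180 (3.37) and *Krt8* from 1762, 1654 and 1734 to 6596, 17190 and 17300 (3.00). *Hand1*, a transcription factor of giant cells and mesoderm, rose from 24.9, 28.2 and 33.1 to 247.7, 280.9 and 278.1 (3.22). *Tead4*, a factor required for trophectoderm, fell from 562.8, 563.2 and 525.1 to 253.9, 364.9 and 393.7 (-0.71). Against *Pds5a*-/- siGLO mESCs none by edgeR (0 at an unadjusted p under 0.05 and 0 by DESeq2) was higher and 1 was lower, and the median was -0.10 (-0.32 to 0.075 over the alternative settings). Lower trophoblast genes there numbered 3 when replicate numbers form blocks, 2 with DESeq2 and 2 without *Pds5a*-/- siGLO replicate 1 or dual-depleted replicate 3. Without dual-depleted replicate 1, 12 trophoblast genes were higher than in WT, and without WT siGLO replicate 1 11 were. Across the whole list the summed normalized counts were 17329, 39633 and 41199 in dual-depleted, 17202, 42142 and 41448 in *Pds5a*-/- siGLO, 6254, 6134 and 5716 in WT siPds5b and 6171, 5936 and 6152 in WT siGLO mESCs.

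Other lineages held DEGs in both directions. Among 22 tested neuroectoderm genes (30 in the list) 6 were higher and 5 lower. Members could pass the filter through the group in which they are high, so these counts do not describe the whole list. *Nes*, the intermediate filament of neural progenitors, fell from 1583, 2265 and 2373 to 799.1, 1024 and 908 (-1.19), and *Olig2*, an oligodendrocyte and motor neuron factor, fell from 472.6, 511.4 and 445.7 to 245.9, 221.8 and 144.5 (-1.22). *Neurog2*, a proneural factor, had at most 1 count in any WT siGLO library and 29.3, 15.6 and 19.9 normalized counts in dual-depleted mESCs. *Pax6* had 91.5, 76.7 and 42.9 against 62.7, 29.3 and 39.7, which overlapped (adjusted p = 0.0755). In the mesoderm and primitive streak list 4 genes were higher and 4 lower of 21. Without WT siGLO replicate 1, which was low in this list's markers, 2 were higher and 5 lower. *Eomes*, a T-box factor of the streak, fell from 344.6, 579 and 579.7 to 188.2, 206.3 and 200.3 (-1.34), and *Gata2*, a factor of blood and endothelium, rose from 40.4, 56.3 and 50.4 to 82.6, 163.8 and 170.4. Of 23 primitive endoderm genes 6 were higher and 1 lower, and the higher ones included the basement membrane collagen *Col4a2* (0.96) and the plasminogen activator *Plat* (1.96). The lineage factors *Gata6* (0.087, adjusted p = 0.899) and *Sox17* (0.49, adjusted p = 0.474) did not pass the threshold, and their libraries overlapped between the groups.

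Hox genes, which pattern the body axis and are held silent by Polycomb in mESCs, rose in 14 of 22 tested genes, while none by edgeR (0 at an unadjusted p under 0.05 and 0 by DESeq2) was lower. The list has 39 genes, and 17 did not pass the filter on low counts. Since a gene could pass through its high values in a single group, the count does not describe the clusters as a whole. Summed over the cluster genes, normalized counts were 698, 1007 and 963 in dual-depleted, 335, 383 and 384 in *Pds5a*-/- siGLO, 271, 232 and 265 in WT siPds5b and 222, 274 and 241 in WT siGLO mESCs. Polycomb components themselves were 11 higher and 6 lower of 32. Lower Polycomb components numbered 3 without dual-depleted replicate 3, WT siGLO replicate 1 or WT siGLO replicate 3. *Phc1*, a polyhomeotic subunit of PRC1, rose from 8395, 7842 and 7732 to 12730, 10670 and 11460 (0.54), *Pcgf5* rose from 356.6, 404.4 and 366.3 to 753.8, 1048 and 1231 (1.43), and *Pcgf2* fell from 817.2, 922.6 and 866.6 to 626.8, 635.4 and 674.7 (-0.43).

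Genes of DNA replication fell in 29 of 55 members, while none by edgeR (1 at an unadjusted p under 0.05 and 0 by DESeq2) was higher, with a median log2 fold change of -0.28. Against *Pds5a*-/- siGLO mESCs 3 of the 55 were lower (3.59% of all tested genes), with a median of -0.098. None by edgeR (1 at an unadjusted p under 0.05 and 1 by DESeq2) was higher there. The mean of the *Pds5a*-/- siGLO libraries was above that of WT siGLO for 5 of the 55. *Pcna*, the sliding clamp of the replication fork, had 7051, 6554 and 5565 normalized counts in dual-depleted and 10600, 10780 and 10930 in WT siGLO mESCs (-0.75, adjusted p = 4.48e-07). *Mcm5*, a subunit of the replicative helicase, had 8447, 7710 and 8427 against 13460, 13440 and 13670 (-0.72), and *Gins3*, which completes the active helicase, had 279.7, 270.5 and 267.1 against 532.8, 522.7 and 449 (-0.88). None of the 3 overlapped between groups, and *Mcm5* and *Gins3* are on chromosome 8. In the list 4 of the lower genes are on that chromosome, and without it 25 of 49 were lower. *Rrm2*, the ribonucleotide reductase subunit that supplies deoxynucleotides, had 3456, 3076 and 2877 in dual-depleted, 5266, 4665 and 5043 in *Pds5a*-/- siGLO, 6666, 6860 and 7055 in WT siPds5b and 8020, 7995 and 7826 in WT siGLO mESCs (-1.34). It belongs to nucleotide and one-carbon synthesis, of which 11 of 33 enzymes were lower and 1 was higher. The serine hydroxymethyltransferases *Shmt1* (-0.68) and *Shmt2* (-0.65), which feed folate with one-carbon units, were both lower.

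DNA repair by homologous recombination followed the same direction, with 22 of 44 genes lower, while none by edgeR (1 at an unadjusted p under 0.05 and 0 by DESeq2) was higher (median -0.27). Lower repair genes numbered 13 without dual-depleted replicate 2. Against *Pds5a*-/- siGLO mESCs 3 of the 44 were lower, with a median of -0.086. None by edgeR (0 at an unadjusted p under 0.05 and 0 by DESeq2) was higher there. The mean of the *Pds5a*-/- siGLO libraries was above that of WT siGLO for 5 of the 44. *Brca2*, whose protein product binds PDS5, had 723.6, 658.2 and 717.6 normalized counts in dual-depleted, 858.3, 727.6 and 886.7 in *Pds5a*-/- siGLO, 2012, 2097 and 2190 in WT siPds5b and 2492, 2056 and 2100 in WT siGLO mESCs. Both *Pds5a*-/- groups were below every WT library. Its log2 fold change was -1.66 (standard error 0.15, adjusted p = 2.09e-08) against WT, and -0.24 against *Pds5a*-/- siGLO mESCs (adjusted p = 0.306, and 0.281 when replicate numbers form blocks). *Rad54b*, a DNA translocase of the pathway, fell from 1126, 930.5 and 1080 to 576.2, 516.2 and 547.2 (-0.94).

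In the G1/S list 5 of 34 genes were higher and 10 lower, and the higher ones with the largest changes all encode inhibitors of cyclin-dependent kinases. *Cdkn1c*, an imprinted gene that encodes p57, had 2401, 2729 and 2685 normalized counts in dual-depleted, 1640, 1741 and 1590 in *Pds5a*-/- siGLO, 824.2, 428.6 and 530.4 in WT siPds5b and 471.8, 352.6 and 383.7 in WT siGLO mESCs. Dual-depleted libraries were the highest of the 12. The log2 fold change was 2.69 (standard error 0.16, adjusted p = 1.64e-10). *Cdkn2b* rose from 48.1, 31.5 and 51.3 to 103.9, 256 and 255.1 (2.20) and its neighbour *Cdkn2a* from 197.6, 203.9 and 193.5 to 363.1, 484.1 and 483.4 (1.16). The G1 cyclin *Ccnd3* fell from 4946, 5112 and 4643 to 1897, 1893 and 2090 (-1.32), its kinases *Cdk6* (-1.18) and *Cdk4* (-0.49) were lower, and the activating factor *E2f2* fell from 421.1, 366.1 and 324.2 to 130.5, 107.8 and 133.6 (-1.58). Genes of mitosis and the kinetochore went both ways, with 6 higher and 11 lower of 56, and their median was -0.013, with values on either side of 0 over the alternative settings (-0.061 to 0.017). Higher mitosis genes numbered 3 without dual-depleted replicate 1 or WT siGLO replicate 3. *Cdc20*, the activator of the anaphase-promoting complex, rose from 6974, 7188 and 7421 to 11490, 10950 and 11170 (0.64), while *Pttg1*, which encodes securin, the inhibitor of cohesin cleavage, fell from 1615, 1598 and 1458 to 744.9, 743.2 and 740.5 (-1.07). Of 29 p53 targets 8 were higher, among them the BH3-only gene *Pmaip1* with 3851, 3803 and 3018 against 1755, 1650 and 1479 normalized counts (1.13), and 4 lower, among them *Gdf15* with 27.5, 28 and 29.9 against 123.7, 101.4 and 113.3 (-1.99).

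Splicing factors, tRNA modification enzymes and aminoacyl-tRNA synthetases had larger shares of lower genes than all tested genes. Of 91 splicing factors 20 were lower and none by edgeR (1 at an unadjusted p under 0.05 and 0 by DESeq2) was higher (median -0.16), and *Cdc5l*, a core protein of the Prp19 complex, had the largest change, from 8671, 6980 and 7457 to 4028, 3899 and 3775 normalized counts (-0.98). Heterogeneous nuclear ribonucleoproteins (3 of 18 lower), ribosome biogenesis factors (20 of 124 lower and 3 higher), nuclear pore subunits (4 of 29 lower) and RNA polymerase I and III subunits (4 of 18 lower and 2 higher) included lower genes, and the first 3 of these shares lie near the 14.6% of all tested genes. Lower ribosome biogenesis factors numbered 12 without dual-depleted replicate 2 or dual-depleted replicate 3, 13 without WT siGLO replicate 1 and 11 without WT siGLO replicate 3. *Npm1*, the nucleolar chaperone with the highest count of the biogenesis factors, fell from 88490, 81560 and 85300 to 70500, 63780 and 60570 (-0.39). tRNA modification enzymes were lower in 21 of 67, with *Ftsj1*, a ribose methyltransferase of the anticodon loop, at 572.7, 625.1 and 641.9 against 1131, 1051 and 1115 (-0.84). Aminoacyl-tRNA synthetases were lower in 14 of 37 and higher in 2, with a median of -0.24. Lower aminoacyl-tRNA synthetases numbered 9 without dual-depleted replicate 2, dual-depleted replicate 3, WT siGLO replicate 1 or WT siGLO replicate 3. Among cytosolic ribosomal proteins 14 of 79 were lower (median -0.19), a share of 17.7% that lies near the 14.6% of all tested genes. The lower ones included *Rpl22* with 5275, 5097 and 4895 against 8418, 9483 and 8266 (-0.78). Lower cytosolic ribosomal proteins numbered 8 without dual-depleted replicate 2, 4 without dual-depleted replicate 3 or WT siGLO replicate 1, 5 without WT siGLO replicate 2 and 9 with scaling by library size only. These genes have many processed pseudogenes that can share their reads, so single members are uncertain.

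The integrated stress response raises genes of amino acid supply through the transcription factor ATF4. In dual-depleted mESCs 13 of 25 such genes were lower and 1 higher, with a median of -0.43. *Asns*, which makes asparagine, had 5917, 6891 and 6953 normalized counts in dual-depleted, 10680, 11890 and 11340 in *Pds5a*-/- siGLO, 12810, 14420 and 14080 in WT siPds5b and 15490, 15350 and 15340 in WT siGLO mESCs. The dual-depleted libraries were the lowest and did not overlap with any other group. The log2 fold change was -1.22 (standard error 0.07, adjusted p = 4.18e-12). The amino acid transporters *Slc7a5* (from 6500, 6668 and 7162 to 3832, 3505 and 2883, -0.99) and *Slc7a1* (from 2755, 2421 and 2778 to 1505, 1352 and 1126) and the serine synthesis enzyme *Psat1* (from 13330, 12680 and 13770 to 9517, 9745 and 9134, -0.49) were lower, while *Cebpb*, a partner of ATF4, rose from 174.4, 172.3 and 172.8 to 294.8, 319.3 and 289 (0.80). The unfolded protein response list, in contrast, had 1 higher and 2 lower of 20, and cytosolic chaperones had 1 lower of 24.

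Nuclear genes of oxidative phosphorylation were lower in 21 of 82 and higher in 1 (median -0.16). Lower oxidative phosphorylation genes numbered 13 without dual-depleted replicate 2 or WT siGLO replicate 1, 6 without dual-depleted replicate 3 and 11 without WT siGLO replicate 2. *Atp5b*, the catalytic subunit of ATP synthase, had 19600, 18770 and 18780 normalized counts in dual-depleted and 19500, 19670 and 19070 in *Pds5a*-/- siGLO mESCs, both far below 36260, 37880 and 37610 in WT siGLO and 37890, 38270 and 35720 in WT siPds5b mESCs (-0.97, adjusted p = 8.49e-12). The knockout and WT libraries did not overlap whichever siRNA they had received. Mitochondrial ribosomal proteins were lower in 20 of 76 and higher in 3, with *Mrps31* at 916.3, 842.7 and 874.1 against 1747, 1573 and 1582 (-0.90). Lower mitochondrial ribosomal proteins numbered 10 without dual-depleted replicate 3, 12 without WT siGLO replicate 1 and 13 without WT siGLO replicate 3. Import factors and mitochondrial chaperones were lower in 5 of 39. Glycolysis enzymes showed few changes (2 higher and 1 lower of 23), of which *Pfkp*, a phosphofructokinase, fell from 4996, 5173 and 4250 to 2511, 2321 and 3356 (-0.82).

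Sterol synthesis, which supplies membranes with cholesterol, had 13 of 25 genes higher and 1 lower (median 0.46). Higher sterol synthesis genes numbered 6 without dual-depleted replicate 3, 7 without WT siGLO replicate 1 and 8 without WT siGLO replicate 3. Against *Pds5a*-/- siGLO mESCs 1 of the 25 was higher (2 by DESeq2), with a median of 0.11. None by edgeR (1 at an unadjusted p under 0.05 and 0 by DESeq2) was lower there. The mean of the *Pds5a*-/- siGLO libraries was above that of WT siGLO for 21 of the 25. *Hmgcs1*, an early enzyme of the pathway, rose from 6907, 7082 and 6540 to 9416, 10720 and 11420 (0.62). *Ebp*, a sterol isomerase encoded on the X chromosome, fell from 671.1, 714.2 and 771.5 to 286.8, 333.8 and 362.8 (-1.13). Lysosome genes went both ways (13 higher and 11 lower of 56), and *Tfeb*, the transcription factor that drives lysosome genes, fell from 558.5, 672.5 and 675.6 to 202.4, 216.6 and 228.2 (-1.56). Higher lysosome genes numbered 8 without WT siGLO replicate 3. Proteasome subunits were lower in 8 and higher in 2 of 38, autophagy genes were higher in 4 and lower in 5 of 33, and vacuolar ATPase subunits were higher in 2 and lower in 3 of 19. The lower shares of autophagy genes (15.2%) and vacuolar ATPase subunits (15.8%) lay near the 14.6% of all tested genes. Their higher shares (12.1% and 10.5%) lay below the 17.4% of all tested genes. Lower proteasome subunits numbered 5 without dual-depleted replicate 2 or dual-depleted replicate 3 and 4 without WT siGLO replicate 1. Rab GTPases of vesicle traffic were higher in 13 and lower in 5 of 54.

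Actin and its regulators formed a group with mostly higher expression. Of 30 actin and SRF target genes 18 were higher and 1 was lower (median 0.55). Against *Pds5a*-/- siGLO mESCs 1 was higher (4 by DESeq2), against 4.0% of all tested genes, with a median of 0.13. None by edgeR (1 at an unadjusted p under 0.05 and 0 by DESeq2) was lower there. The mean of the *Pds5a*-/- siGLO libraries was above that of WT siGLO for 25 of the 30. *Acta1*, skeletal muscle actin, had 641.1, 1803 and 2034 normalized counts in dual-depleted, 516, 1372 and 1320 in *Pds5a*-/- siGLO and 125.5, 169 and 118.3 in WT siGLO mESCs. Both *Pds5a*-/- groups were above every WT library, with replicate 1 the lowest of each. For *Acta1* the log2 fold change was 3.45 (standard error 0.53, adjusted p = 1.06e-04). *Cnn1*, smooth muscle calponin, rose from 109.1, 134 and 107.5 to 681.9, 975.4 and 851.2 (2.85), and *Fhl2*, a LIM protein that binds SRF, rose from 17.2, 16.9 and 23.1 to 94.1, 194.9 and 175.4 (2.99). *Actb*, the actin with the highest count, had 41810, 47020 and 42460 against 36140, 40790 and 39550, which did not pass the threshold (0.17, adjusted p = 0.12). Targets and parts of the Hippo pathway were higher in 12 and lower in 3 of 28. *Ctgf*, a secreted matrix protein and standard readout of YAP, had 3932, 3742 and 3182 normalized counts in dual-depleted, 1761, 1809 and 1677 in *Pds5a*-/- siGLO, 552.2, 438.7 and 508.5 in WT siPds5b and 562, 470.9 and 459.8 in WT siGLO mESCs (2.86, adjusted p = 2.57e-16). The dual-depleted libraries were the highest, and the single knockout lay between them and WT. *Ankrd1*, another YAP readout, rose from 86.8, 68.7 and 77.7 to 228.2, 290.2 and 299 (1.80).

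Of 33 tested cadherin and junction genes 18 were higher and 2 lower (median 0.65), although 17 of the 50 did not pass the filter and the counts do not describe the whole list. Against *Pds5a*-/- siGLO mESCs 2 of the 33 were higher, with a median of 0.12. None by edgeR (1 at an unadjusted p under 0.05 and 0 by DESeq2) was lower there. The mean of the *Pds5a*-/- siGLO libraries was above that of WT siGLO for 26 of the 33. *Cldn1*, a tight junction protein, had at most 2 counts in any WT siGLO library and 29.3, 20.7 and 18.9 normalized counts in dual-depleted mESCs. *Zeb1* (-0.69) and *Zeb2* (-1.15), repressors of epithelial genes, were lower, while *Snai2*, another such repressor, rose from 3.44, 5.63 and 10.8 to 64.8, 54.9 and 60.8 (3.14). Of 76 tested collagens, laminins and integrins (90 in the list) 29 were higher and 6 lower. As for Hox genes, members could pass the filter through the group in which they are high. Lower matrix genes numbered 2 without dual-depleted replicate 1 or dual-depleted replicate 2, 3 without WT siGLO replicate 1, WT siGLO replicate 2 or WT siGLO replicate 3 and 2 with scaling by library size only. *Col6a2* rose from 16.3, 23.7 and 9.92 to 121.6, 106.8 and 128.6 (2.87) and *Col23a1*, a membrane collagen, from 10.3, 14.6 and 16.5 to 83.5, 133.7 and 144.5 (3.11), whereas *Itgal*, a leukocyte integrin, fell from 109.1, 92.4 and 106.7 to 24, 40.4 and 18.9 (-1.89). In the fibroblast list 5 were higher and 2 lower of 17, and without dual-depleted replicate 1 6 were higher and 2 lower. *Tagln*, an actin-binding protein also controlled by SRF, rose from 1361, 1657 and 1678 to 4160, 10420 and 8865 (2.32), and *Vim*, the mesenchymal intermediate filament, fell from 4881, 6000 and 6603 to 2588, 3089 and 3235 (-0.97).

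Promoter sequences were read for lists with a known regulator, in the 250 bases before the RefSeq gene start (GRCm38.p6), on both strands, for 11730 tested genes that had an entry. The CArG box, which SRF binds, was found in 9 of 26 actin and SRF target promoters (34.6%) and in 1.18% of all promoters searched. Of the 16 higher list members with an entry, 8 held it. The E2F letters TTTCCCGC, TTTCGCGC, TTTGCCGC or TTTGGCGC were in 10 of 45 DNA replication promoters (22.2%) and in 3.42% of all. Of the 24 lower ones with an entry, 7 held them. The letters TGATGNAA, which ATF4 and C/EBP factors can bind, were in 6 of 23 stress response promoters (26.1%) against 1.98%, and in 3 of the 12 lower ones with an entry. TCACNCCAC, a sterol regulatory element, was in 1 of 17 sterol promoters (5.88%) against 1.02%, and that gene was 1 of 7 higher ones with an entry. The interferon-stimulated response element, a pair of GAAA repeats, was in 9 of 28 interferon promoters (32.1%) against 2.4%, but in only 1 of the 10 higher ones with an entry. These lists were assembled from known targets, so the shares describe the lists and not the cells. For 4 of the lists, the sequence of the DEG with the largest change among those holding a match follows, with the match in capitals, on either strand. N stands for any base.
Acta1, chr8:123894776-123895025, minus strand, CArG box: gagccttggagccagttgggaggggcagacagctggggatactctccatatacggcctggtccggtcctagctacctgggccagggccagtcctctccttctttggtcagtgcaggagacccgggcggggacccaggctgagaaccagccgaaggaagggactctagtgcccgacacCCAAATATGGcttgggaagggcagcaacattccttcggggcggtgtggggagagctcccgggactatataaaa
Gins3, chr8:95633309-95633558, plus strand, E2F site: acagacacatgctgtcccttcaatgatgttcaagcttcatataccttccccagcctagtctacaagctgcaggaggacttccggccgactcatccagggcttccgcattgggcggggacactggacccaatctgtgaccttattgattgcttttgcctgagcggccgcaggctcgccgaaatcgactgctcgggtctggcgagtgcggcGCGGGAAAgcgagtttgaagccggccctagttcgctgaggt
Asns, chr6:7693210-7693459, minus strand, ATF4 response element: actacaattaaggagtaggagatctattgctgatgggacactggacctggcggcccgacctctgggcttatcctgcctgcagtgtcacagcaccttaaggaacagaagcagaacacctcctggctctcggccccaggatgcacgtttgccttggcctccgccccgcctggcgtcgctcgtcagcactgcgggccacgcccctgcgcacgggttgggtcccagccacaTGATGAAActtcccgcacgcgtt
Hmgcs1, chr13:119690101-119690350, plus strand, sterol regulatory element: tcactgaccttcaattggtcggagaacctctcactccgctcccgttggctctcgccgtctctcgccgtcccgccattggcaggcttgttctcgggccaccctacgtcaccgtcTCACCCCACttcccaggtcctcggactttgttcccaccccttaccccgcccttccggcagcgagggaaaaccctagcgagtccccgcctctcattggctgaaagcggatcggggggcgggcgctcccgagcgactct

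Signalling lists held DEGs in both directions, some at shares near those of all tested genes, with some of the largest single changes in ligands. *Fgf8*, a secreted FGF of the primitive streak and the neural boundaries, had 8.88, 16.6 and 15.9 normalized counts in dual-depleted, 4.06, 53.3 and 25.1 in *Pds5a*-/- siGLO, 157.9, 738.9 and 790.9 in WT siPds5b and 167.6, 921.5 and 882.3 in WT siGLO mESCs. Replicate 1 was the lowest in both WT groups but stayed above every *Pds5a*-/- library. The log2 fold change was -5.58 (standard error 0.90, adjusted p = 1.49e-04). *Fgf17*, a related ligand, fell from 617, 720.9 and 760.8 to 101.2, 127.5 and 123.6 and was at 412.4, 538.7 and 448.2 in the single knockout (-2.58), and *Fgf15* fell from 248.3, 299.6 and 397.8 to 108.3, 91.2 and 95.7 (-1.68). On the receptor side *Fgfr2* rose from 85.1, 51.8 and 68.6 to 440.4, 440.5 and 442.5 (2.67), and the ERK phosphatase *Dusp4* rose from 435.7, 403.3 and 421.7 to 1058, 983.7 and 978.7 (1.26). In all 10 of 39 genes of this pathway were higher and 9 lower. Higher FGF pathway genes numbered 16 with the replicate number as a block. *Inhbb*, which encodes the activin B subunit, had 53.3, 61.2 and 43.9 in dual-depleted, 309.8, 318 and 334.5 in *Pds5a*-/- siGLO, 1260, 698.7 and 770.3 in WT siPds5b and 1468, 822.3 and 903.8 in WT siGLO mESCs (-4.34, adjusted p = 1.13e-09). The dual-depleted libraries were below the single knockout, which was below both WT groups. *Lefty2*, a NODAL inhibitor and target, fell from 2028, 2430 and 1900 to 894.1, 1151 and 1189 (-0.98). The Nodal, activin and TGF-beta list had 6 higher and 3 lower of 28 (21.4% and 10.7%, against 17.4% and 14.6% of all tested genes).

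BMP pathway and Id genes were higher in 8 of 25 and lower in 1. Higher BMP genes numbered 5 without dual-depleted replicate 3 or WT siGLO replicate 1. The ligands *Bmp8b* (from 54.1, 41.7 and 53.8 to 261.9, 489.3 and 479.4, 3.02) and *Gdf6* (from 11.2, 10.1 and 18.2 to 93.2, 130.6 and 139.5, 3.16) rose, and so did *Id1*, the direct target that blocks bHLH factors (from 1091, 1006 and 1163 to 2593, 3614 and 3568, 1.58). *Gdf6* had 7.11, 16.8 and 28.9 normalized counts in *Pds5a*-/- siGLO mESCs, near WT. In the Wnt list 13 genes were higher and 3 lower of 47. Higher Wnt genes numbered 8 without dual-depleted replicate 3 or WT siGLO replicate 1. *Wnt7b* rose from 73, 49.6 and 49.6 to 270.8, 439.5 and 516.3 (2.82), while the secreted inhibitors *Sfrp1* (from 3232, 3156 and 2604 to 903.9, 823 and 1045, -1.70) and *Notum* (from 397, 348.1 and 356.4 to 119.9, 91.2 and 95.7, -1.84) fell. Notch genes were higher in 9 and lower in 5 of 31. The ligand *Dll1* rose from 66.2, 48.4 and 48.8 to 370.2, 311 and 373.8 (2.68) and the target *Hey1* from 58.4, 51.8 and 55.4 to 172.3, 164.8 and 206.3 (1.71), but the target *Hes1* fell from 584.3, 759.2 and 740.9 to 244.2, 379.4 and 411.6 (-1.01). Of 21 LIF and STAT3 genes 4 were higher and 3 lower. Beside the fall of *Klf4* and *Tfcp2l1*, the feedback inhibitor *Socs1* rose from 91.1, 101.4 and 81 to 207.8, 247.7 and 197.3 (1.26) and the kinase *Pim1* from 2061, 2247 and 2356 to 4575, 5290 and 4225 (1.08).

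Part of the membrane excitability genes did not pass the filter on low counts. Of 63 sodium and calcium channel genes 41 passed the filter, of which 21 were higher and 5 lower. *Scn3a*, a neuronal sodium channel, fell from 131.5, 120.5 and 148.8 to 4.44, 5.18 and 5.98 (-4.66). Potassium channels had 16 higher and 6 lower of 63 tested genes (96 in the list), and *Kcnj12*, an inward rectifier, fell from 159.8, 163.3 and 178.6 to 31.1, 31.1 and 30.9 (-2.43). Receptors for glutamate, GABA and acetylcholine had 12 higher and 3 lower of 34 tested genes (68 in the list), with the GABA-A subunit *Gabra5* rising from 2.58, 12.4 and 8.27 to 82.6, 48.7 and 57.8 (3.06). As for Hox genes, members of these 3 lists could pass the filter through the group in which they are high, so the counts do not describe the lists as a whole. Neuronal cytoskeleton and synapse genes had 14 higher and 6 lower of 47. *Syp*, the synaptic vesicle protein, rose from 44.7, 58.6 and 49.6 to 225.5, 208.4 and 237.2 (2.14), while the microtubule regulators *Stmn2* (from 8247, 7792 and 7298 to 2717, 3113 and 3083, -1.39) and *Mapt* (from 668.5, 531.7 and 543.3 to 188.2, 235.3 and 261.1, -1.35) fell. Among guidance molecules 14 were higher and 8 lower of 65, and *Ntn1*, the netrin, fell from 1181, 1709 and 1890 to 139.4, 151.3 and 209.3 (-3.26). Higher guidance genes numbered 9 without dual-depleted replicate 3 or WT siGLO replicate 1.

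Innate immune genes were partly higher. Of 34 interferon-stimulated genes 12 were higher and 5 lower (median 0.48). *Oasl2*, an antiviral OAS-like protein, had 893.2, 941.2 and 1010 normalized counts in dual-depleted, 221.4, 224.5 and 221.7 in *Pds5a*-/- siGLO, 93.7, 221 and 161.9 in WT siPds5b and 92.8, 237.7 and 215.8 in WT siGLO mESCs. The dual-depleted libraries were above every library of the other 3 groups. Its log2 fold change was 2.39 (standard error 0.25, adjusted p = 5.09e-07) against WT, and 2.09 against *Pds5a*-/- siGLO mESCs (adjusted p = 1.39e-05). *Zbp1*, a sensor of Z-form nucleic acids, rose from 54.1, 121.7 and 110.8 to 266.4, 251.9 and 333.9 (1.58). *Herc6*, an ISG15 ligase, fell from 179.6, 282.7 and 248.9 to 70.1, 59.1 and 73.8 (-1.80), although the single knockout was lower still with 9.14, 24.3 and 16.4.

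Ranked over all DEGs that were well counted and did not overlap between the groups, the 12 largest increases included *Uba1y*, a ubiquitin-activating enzyme on the Y chromosome, with 385.3, 304.8 and 311 normalized counts in dual-depleted, 130.0, 128.1 and 101.2 in *Pds5a*-/- siGLO, 13.2, 8.93 and 5.74 in WT siPds5b and 1.72, 6.76 and 4.96 in WT siGLO mESCs. The copy of this gene on the X chromosome may share its reads, so the value is uncertain. Of 6 tested genes of the Y chromosome 3 were higher and 1 was lower. *Nlrp4c* (4.47), an NLR gene of the oocyte, *Krt20* (4.47), an intestinal keratin, *Gbp7* (4.40), a guanylate-binding protein, *Scin* (4.06), an actin-severing protein, *Ddx60* (3.72), an antiviral helicase, and *Car4* (3.66), a carbonic anhydrase, were also among them. The 12 largest decreases included *Klhl4*, a kelch protein gene on the X chromosome, with 5.33, 0 and 0.997 normalized counts in dual-depleted, 0 in each *Pds5a*-/- siGLO library and 386.7, 475.4 and 399.4 in WT siGLO mESCs. *Mest*, an imprinted gene, fell from 1985, 1951 and 2201 to 152.7, 137.9 and 107.6 (-3.94), and *Mras*, a RAS-related GTPase, from 921.2, 648.8 and 713.6 to 53.3, 78.8 and 56.8 (-3.60). *Nkx6-3* (-4.49), a homeobox factor of the stomach, *Thsd7a* (-3.93), a thrombospondin-domain protein, *Skida1* (-3.98) and *Accsl* (-3.71) were lower too.

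Genes of chromosome 8 had a median log2 fold change of -0.23 over 781 tested genes, with 65 higher and 246 lower, and no other chromosome with at least 50 tested genes had a median of more than 0.2 in size. The median of these genes was -0.19 in *Pds5a*-/- siGLO mESCs and -0.014 in WT siPds5b mESCs against WT siGLO, and -0.037 in dual-depleted against *Pds5a*-/- siGLO mESCs. The shift was thus seen in the *Pds5a*-/- clone under either siRNA. In *Pds5b*-/- siGLO mESCs, another edited clone, the median of these genes was 0.30 against WT siGLO, in the opposite direction. Whether the number of copies of this chromosome differs between the lines was not tested. Without chromosome 8, lower genes numbered 14 of 115 ribosome biogenesis factors, 11 of 33 aminoacyl-tRNA synthetases, 2 of 27 nuclear pore subunits, 18 of 74 mitochondrial ribosomal proteins, 3 of 31 autophagy genes, 3 of 50 Rab GTPases, 2 of 27 p53 targets, 0 of 18 unfolded protein response genes, 2 of 45 Wnt genes and 10 of 16 naive pluripotency factors, while higher genes numbered 4 of 20 primitive endoderm genes. Of the genes named above, *Acta1*, *Col4a2*, *Ddx60*, *Dusp4*, *Gdf15*, *Gins3*, *Mcm5*, *Mrps31*, *Nkx6-3*, *Plat*, *Sfrp1*, *Slc7a5* and *Tubb3* are on this chromosome.

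**Figure D3:**
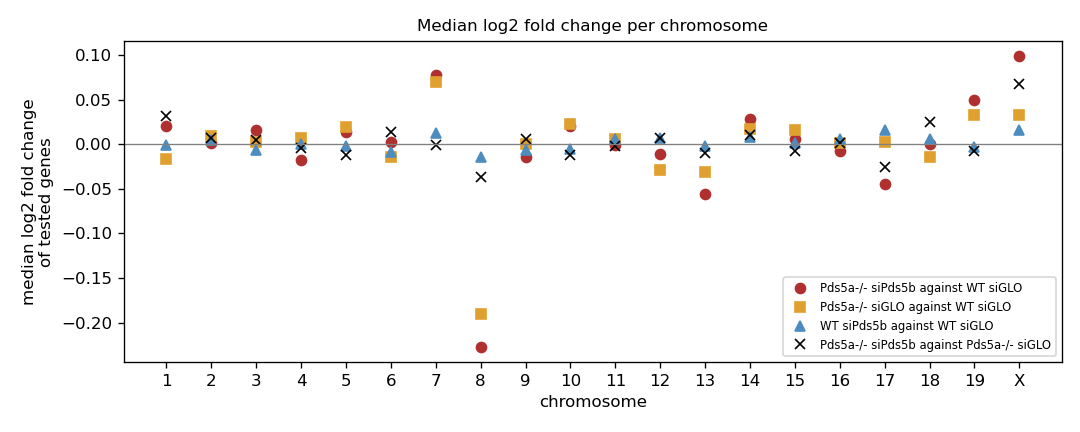
Median log2 fold change of the tested genes of each chromosome (y axis) for 4 comparisons, chromosomes with at least 50 tested genes (x axis). Chromosome 8 lies at -0.23 in dual-depleted and -0.19 in *Pds5a*-/- siGLO mESCs, both against WT siGLO mESCs.

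**Figure D4:**
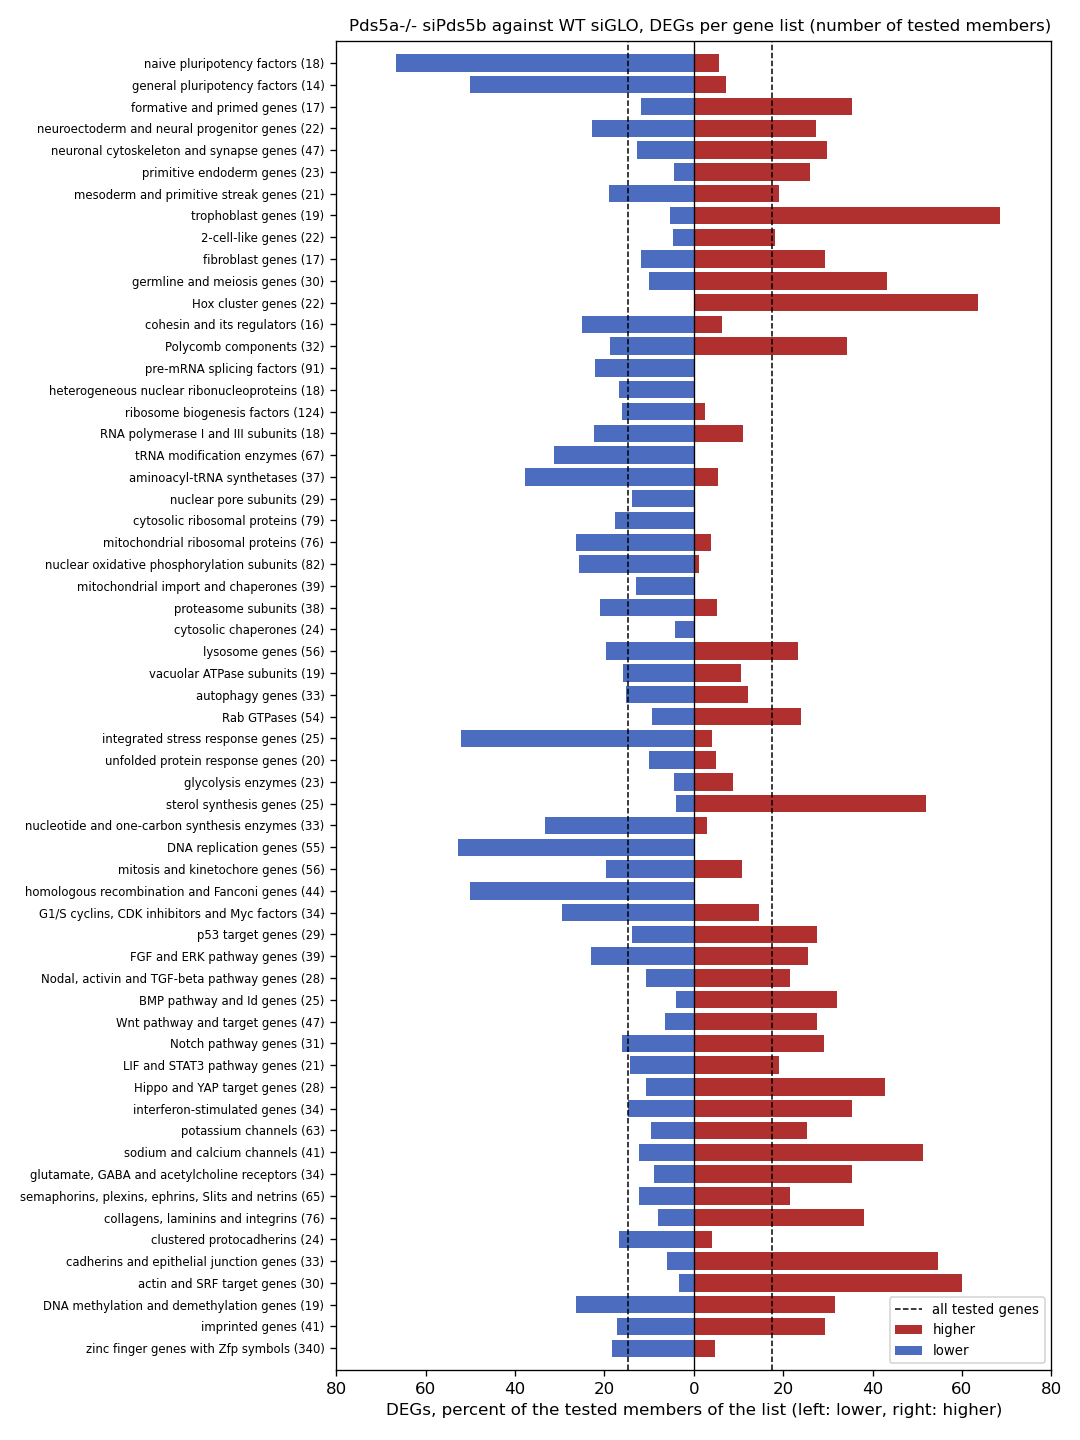
Share of the tested members of gene lists that were DEGs with higher (right) or lower (left) expression in dual-depleted than in WT siGLO mESCs, in percent, with the number of tested members in parentheses and dashed lines at the 17.4% and 14.6% of all tested genes. Naive pluripotency, DNA replication and integrated stress response genes reach farthest to the left, and trophoblast and actin genes are among those far to the right. Members that did not pass the filter on low counts are left out of these shares.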

How the data were processed

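The counts are reads per gene symbol as deposited by the authors, who aligned paired-end reads of poly-A libraries to mm10 with STAR. The counting tool, annotation and strand setting are not given in the sources used here. All 21 libraries in 7 groups were fitted in 1 model with edgeR 4.0.16 (R 4.3.3). Genes passed edgeR's filter on low counts over groups (14963 of 23412), libraries were scaled by TMM, and contrasts were tested with the quasi-likelihood F test, with Benjamini-Hochberg adjustment and a threshold of 0.01. The model contrasts are *Pds5a*-/- siPds5b against WT siGLO and against *Pds5a*-/- siGLO. Standard errors are the size of the log2 fold change divided by the square root of F. DESeq2 1.42.0 was an alternative. The code was first run on simulated data.

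The 61 gene lists were written from general knowledge, and the libraries and lists were chosen with earlier results on these data known. Named genes are *Pds5a* and *Pds5b*, the 12 largest changes in each direction among well-counted DEGs without overlap, the 3 largest changes in each direction and the gene with the highest count of each list, and a few lineage factors. Not every such gene is named, and some results are not reported here. Genes with at most 3 counts in a group are given as counts.

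Replicate numbers were checked as pairs. Between dual-depleted and *Pds5a*-/- siGLO libraries, deviations from the group mean correlated across 10973 genes (which are not independent replicates) with r of 0.728, 0.370 and 0.606 for the same number, against 0.247, 0.041 and -0.038 between dual-depleted and WT siGLO libraries. The pairing was left out of the main model and tried as an alternative. Of the symbols, 21563 matched the current annotation directly and 1689 through an older symbol. Promoters are from RefSeq (GRCm38.p6), and guide positions are from the transcripts of GENCODE vM21.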

Additional observations from a re-analysis of the deposited data

How the results depend on the processing

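The 4787 DEGs against WT siGLO mESCs (2598 higher and 2189 lower) stayed within 1.5 times in every alternative but a limit on size. When DEGs also had to change by 1 or more on the log2 scale there were 1798, 1276 higher and 522 lower, which follows from the stricter limit. With only the 2 groups compared there were 4214 DEGs, and DESeq2 gave 5189. RLE normalization gave 4757, scaling by library size only gave 4691 (2770 higher and 1921 lower), no filter on low counts gave 4660 and leaving out genes of chromosome 8 gave 4480. With the replicate number as a block there were 5387 DEGs against WT siGLO (2934 higher and 2453 lower), where the pairing is by number only, and 1568 against *Pds5a*-/- siGLO mESCs (857 higher and 711 lower). Leaving out each library in turn gave 3836 to 4505 DEGs against WT siGLO, 2046 to 2413 higher and 1753 to 2092 lower. Against *Pds5a*-/- siGLO mESCs it gave 689 to 946 in place of 1136, 344 to 500 higher and 333 to 457 lower. There the counts were 689 (344 higher and 345 lower) without *Pds5a*-/- siGLO replicate 2 and 710 (377 higher and 333 lower) without dual-depleted replicate 2, with fewer samples in the fit. With only the 2 groups compared there were 524, 301 higher and 223 lower, also from fewer samples. There DESeq2 gave 1500, keeping weakly counted genes gave 1104, RLE normalization gave 1132 and size scaling alone gave 1147. Of the 141 genes named, 137 kept their call in every alternative but the limit on size, 4 lost it in at least 1, and none with a call reversed. The 14 on chromosome 8 were not in the alternative that leaves out its genes. Under the limit on size, 99 of the 136 named DEGs kept their call and 37 lost it. Of the 122 counts of list members in each direction, 67 stayed within 1.5 times in every alternative but the limit on size, and 55 did not in at least 1. Under the limit on size 39 of the 122 stayed within 1.5 times and 83 fell by more.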

Other observations

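Imprinted genes were higher in 12 and lower in 7 of 41 tested genes. *Mcts2*, a retrogene expressed from the paternal allele, fell from 533.6, 476.5 and 487.9 normalized counts in WT siGLO to 181.1, 212.5 and 174.4 in dual-depleted mESCs (log2 fold change -1.40). Reads were not assigned to an allele. Germline and meiosis genes were higher in 13 and lower in 3 of 30. *Mael*, of the piRNA pathway, rose from 321.4, 223 and 203.4 to 1024, 892.5 and 881.1 (1.90), *Tdrd1*, a Tudor protein of the same pathway, from 47.3, 37.2 and 45.5 to 203.3, 170.0 and 147.5 (1.99), and *Sycp2*, of the synaptonemal complex, from 25.8, 18 and 12.4 to 142.9, 114 and 125.6 (2.76). Zinc finger genes with Zfp symbols were lower in 62 and higher in 16 of 340, and *Zfp42*, the pluripotency marker REX1, which is on chromosome 8, fell from 10850, 8729 and 9431 to 3643, 3462 and 3275 (-1.48). Higher zinc finger genes numbered 9 without dual-depleted replicate 2, 10 without dual-depleted replicate 3, 6 without WT siGLO replicate 1, 8 without WT siGLO replicate 2 and 7 without WT siGLO replicate 3. Clustered protocadherins, of which 24 of 58 passed the filter, were higher in 1 and lower in 4.

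Genes of the 2-cell-like state, a transient state in which cultures of mESCs express genes of the early embryo, were compared with each control. Against WT siGLO mESCs 4 of 22 were higher and 1 was lower, with a median log2 fold change of 0.18 (0.016 to 0.43 over the alternative settings). Against *Pds5a*-/- siGLO mESCs 21 were higher and none by edgeR (0 at an unadjusted p under 0.05 and 0 by DESeq2) was lower, with a median of 2.77 (2.64 to 3.01 over the alternative settings). The summed counts of the 5 markers were 186.9, 159 and 109.9 in *Pds5a*-/- siGLO mESCs, below all libraries of the other 3 groups, and 1725, 971.1 and 1239 in WT siPds5b mESCs. *Usp17lb*, a deubiquitinase gene of this state, had 345.4, 293.4 and 180.4 normalized counts in dual-depleted, 29.5, 29 and 18.3 in *Pds5a*-/- siGLO and 80.8, 57.5 and 89.3 in WT siGLO mESCs. Most of these genes have near-identical copies, so the value of any single gene is uncertain. Both comparisons use the dual-depleted libraries and are not independent.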
